A study of Mus musculus with 3 samples.

Results

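The endothelial cells of the corpus and cauda epididymis are the cells that line the blood and lymphatic vessels around the middle and the last stretch of the epididymal duct. They made up 111 of the 14555 cells with at least 200 detected genes in the whole series. The cells were chosen by their measured counts: a cell was taken as endothelial where at least 3 of 11 endothelial genes were detected, where these 11 genes summed to at least 8 unique molecular identifiers (UMIs) per 10000 UMIs of the cell, and where Krt5 (basal cells), Foxi1 (clear cells) and C1qa (macrophages) together gave no more than 2 UMIs. The 11 genes were Pecam1, Cdh5, Emcn, Flt1, Ptprb, Plvap and Egfl7, which mark endothelium in general or blood vessels, and Prox1, Mmrn1, Flt4 and Reln, which mark lymphatic vessels. An endothelial cell with at least 2 of the last 4 genes was taken as lymphatic and any other as blood endothelial. All mice were wild-type C57BL/6 animals aged 56 days with no treatment, and 1 single-cell library was made from each of caput, corpus and cauda after enzymatic digestion and lysis of red blood cells. The number of animals behind each library was not given in the sources used here. With 1 library per region no test was possible, region and library cannot be told apart, and every interval below is an exact 95% interval that covers counting error only.

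Blood endothelium forms the exchange surface between plasma and tissue, and its cells differ along the vascular tree from arteries through capillaries to veins. Lymphatic endothelium arises largely from veins under the transcription factor Prox1, takes up interstitial fluid and immune cells in thin capillaries, and passes them on through collecting vessels with valves. Both respond to vascular endothelial growth factors, with Flt1 and Kdr as the main receptors in blood vessels and Flt4 as the receptor that lymphatic growth depends on.

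In the corpus, 91 of 4831 cells were endothelial (1.88%, Clopper-Pearson interval 1.52 to 2.31%), of which 56 were blood and 35 lymphatic. In the cauda, 20 of 4785 cells were endothelial (0.418%, 0.256 to 0.645%), of which 13 were blood and 7 lymphatic. The same rule found 322 cells in the caput, 300 blood and 22 lymphatic. The lymphatic share of the endothelial cells was 38.5% (28.5 to 49.3%) in the corpus, 35.0% (15.4 to 59.2%) in the cauda and 6.83% (4.33 to 10.2%) in the caput. The corpus and cauda shares overlapped each other and both lay above the interval of the caput. These are shares of recovered cells, which digestion can shift, and a lymphatic call needs 2 genes to be detected and so depends on depth. After every cell was thinned to 1000 UMIs, leaving out 20 caput, 59 corpus and 1088 cauda cells as too shallow, the lymphatic cells numbered 10 against 185 blood cells in the caput, 19 against 37 in the corpus and 7 against 8 in the cauda. The 4 groups of endothelial cells held 221155 UMIs (corpus blood), 189929 (corpus lymphatic), 80936 (cauda blood) and 53607 (cauda lymphatic). Their median depths were 2759, 4567, 4719 and 7986 UMIs per cell, against 2646 and 2187 in the other cells of corpus and cauda. Between libraries, 14 to 21 cell barcodes were shared by each pair, 3 of those shared by caput and corpus and 4 of those shared by caput and cauda marked an endothelial cell in 1 of the libraries, and no barcode was an endothelial cell in more than 1.

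Close to the threshold, the corpus cell with the lowest sum inside the rule had 9.52 UMIs of the 11 genes per 10000 and the corpus cell with the highest sum outside it had 6.97. The lowest cauda cell inside had 13.2, and no cauda cell was kept out by the sum alone. With the number of markers as the only failed condition, 8 corpus and 8 cauda cells stayed outside, and with Krt5, Foxi1 and C1qa as the only failed condition 6 corpus cells and 1 cauda cell. Among the blood cells, 11 of the corpus and 1 of the cauda held 1 of the 4 lymphatic genes.

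The promoters of receptors and surface proteins on either side of this division are shown because ETS-family transcription factors are known to bind many endothelial promoters. Their sites share the core GGAA, and the longer form AGGAAG was searched here. Each runs from 250 bases before to 50 bases after the gene's start on its own strand in the RefSeq annotation of GRCm38.p6, and capitals mark AGGAAG or its reverse complement CTTCCT. Flt1 and Emcn are from the blood side, at chr5:147725962-147726261 on the minus strand and chr3:137340828-137341127 on the plus strand. Flt4 and Fgl2 are from the lymphatic side, at chr11:49609429-49609728 and chr5:21372423-21372722, both on the plus strand.
Flt1: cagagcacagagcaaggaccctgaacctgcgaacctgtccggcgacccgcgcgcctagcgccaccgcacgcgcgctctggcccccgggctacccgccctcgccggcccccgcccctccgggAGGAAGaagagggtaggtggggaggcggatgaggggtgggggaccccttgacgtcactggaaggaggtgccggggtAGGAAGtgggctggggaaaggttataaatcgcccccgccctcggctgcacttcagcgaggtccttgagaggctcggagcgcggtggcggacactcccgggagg
Emcn: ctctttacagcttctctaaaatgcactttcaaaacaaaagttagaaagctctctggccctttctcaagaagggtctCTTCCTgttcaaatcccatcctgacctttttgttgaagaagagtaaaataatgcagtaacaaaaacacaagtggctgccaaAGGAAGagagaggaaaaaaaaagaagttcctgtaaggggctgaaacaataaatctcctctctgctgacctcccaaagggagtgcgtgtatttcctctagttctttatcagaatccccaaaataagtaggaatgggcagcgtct
Flt4: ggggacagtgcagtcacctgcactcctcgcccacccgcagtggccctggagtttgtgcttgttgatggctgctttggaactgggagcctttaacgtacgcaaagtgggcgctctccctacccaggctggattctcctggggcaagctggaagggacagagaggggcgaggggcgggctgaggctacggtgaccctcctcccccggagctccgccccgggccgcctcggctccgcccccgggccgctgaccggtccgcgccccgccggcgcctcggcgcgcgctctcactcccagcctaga
Fgl2: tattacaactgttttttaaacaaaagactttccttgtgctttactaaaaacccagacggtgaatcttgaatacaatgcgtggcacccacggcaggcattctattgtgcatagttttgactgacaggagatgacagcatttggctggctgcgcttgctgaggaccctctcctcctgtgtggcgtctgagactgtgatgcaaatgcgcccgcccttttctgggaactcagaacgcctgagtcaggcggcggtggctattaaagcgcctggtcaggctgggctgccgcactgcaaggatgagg
The Flt1 window holds the motif at 2 places, beginning 129 and 53 bases before the start, and the Emcn window at 2 places, beginning 174 bases (on the opposite strand) and 93 bases before the start. The Flt4 and Fgl2 windows hold no AGGAAG, though the shorter core GGAA stands in both. Among the rule's own genes with an entry, the motif stood in 3 of 3 promoters of its general or blood vessel genes (Egfl7, Emcn and Flt1). In the promoters of its lymphatic genes it stood in 0 of 4. Of all 32851 promoters of 27025 genes searched on both strands, 35.3% hold it. Among the genes named below from their levels, 3 of 9 promoters on the lymphatic side (Lcn2, Gpm6a and Nts) and 0 of 7 on the blood side held it. A second motif, ACAATG (the core bound by SOX factors, with CATTGT on the other strand), stood in 12.6% of all promoters and in those of Mmrn1, Fgl2 and Enpp3. These matches are descriptions of letters in a short window.

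The rule's genes chose the cells, and their levels are given only to describe them. Its 4 lymphatic genes and Flt1 separated the groups in both libraries in the same way. Prox1, the transcription factor that sets lymphatic identity, gave 128 UMIs in 31 of 35 lymphatic cells of the corpus and 91 UMIs in 7 of 7 of the cauda, against 2 UMIs in 1 corpus blood cell and 0 in cauda blood cells. Mmrn1, a secreted multimerin of lymphatic endothelium, gave 411 and 90 UMIs in the lymphatic cells and 16 and 0 in the blood cells. Reln, the secreted glycoprotein reelin, gave 60 and 25 UMIs in lymphatic cells and 0 in blood cells of both regions. Flt4 followed with 95 and 32 UMIs against 9 and 1. On the other side, Flt1 gave 166 UMIs in 38 of 56 corpus blood cells and 30 UMIs in 9 of 13 cauda blood cells, and 0 among the 189929 and 53607 UMIs of the lymphatic cells. That 0 allows up to 15.8 CPM (a gene's UMIs scaled by all UMIs of the group, in the usual CPM unit) in the corpus and 56.0 CPM in the cauda (3 counts over the group), against 751 CPM (641 to 874) and 371 CPM (250 to 529) in the blood cells. The remaining genes were found in all 4 groups and did not all separate them. Cdh5 was lower in lymphatic than in blood cells of the corpus and higher in those of the cauda. Egfl7 was at nearly the same level in lymphatic and blood cells of the cauda. Pecam1, an adhesion molecule of all endothelium, stood at 521 CPM in corpus lymphatic, 317 in cauda lymphatic, 592 in corpus blood and 717 in cauda blood cells. Ptprb, the vascular endothelial phosphatase VE-PTP, stood at 126, 205, 701 and 964 CPM in the same order, with the lymphatic cells lowest in both regions.

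**Figure D1:**
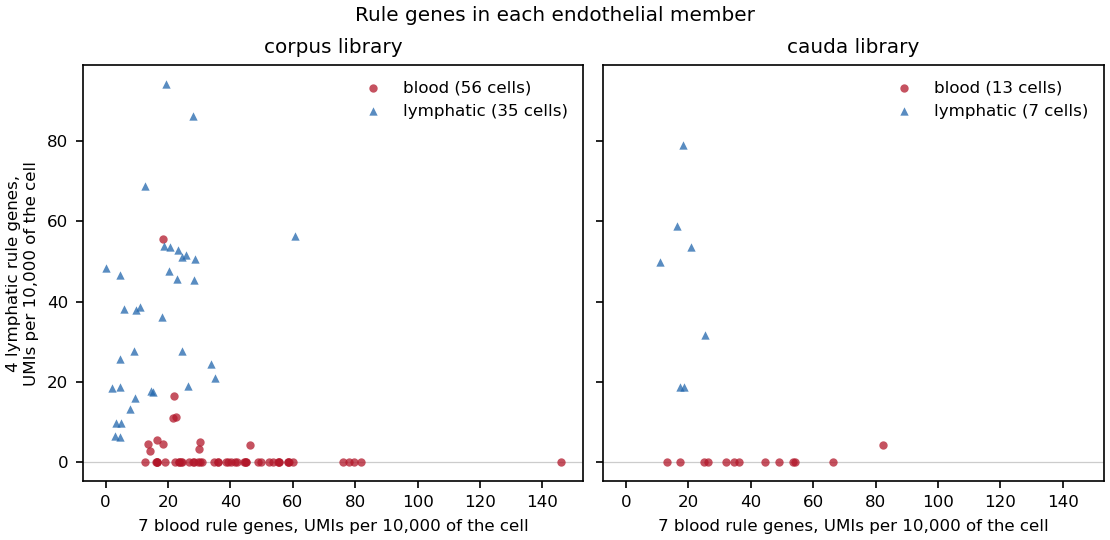
UMIs per 10000 of the 7 blood and pan-endothelial genes of the rule (horizontal axis) and of its 4 lymphatic genes (vertical axis), with 1 point per endothelial cell of the corpus and of the cauda. Blood cells lie along the horizontal axis and lymphatic cells above it. The 11 corpus blood cells and 1 cauda blood cell that hold 1 lymphatic gene lie above the axis. Some of them are as high as the lowest lymphatic cells of the corpus, at 6.16 per 10000, and the highest is at 55.5.

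Lymphatic and blood cells of the same library were compared gene by gene, without the 11 genes of the rule, where both groups together held at least 20 UMIs. A gene counted as higher where the ratio of CPM was at least 3 and its interval (exact conditional binomial) excluded 1.5. In the corpus, 106 of 3273 genes (3.24%) were higher in lymphatic cells and 170 (5.19%) in blood cells. In the cauda, 74 of 1255 genes (5.9%) were higher in lymphatic and 86 (6.85%) in blood cells, and 56 and 114 under TMM scaling, which shifted all log2 ratios there by -0.31. Since the cells were split by correlated genes, these counts describe the split and nothing is read from them. The corpus and cauda cells come from different libraries, but the same rule split the cells of both. Genes correlated with the lymphatic genes of the rule would therefore fall on the same side in each. The share of all compared genes on the same side is not given here. Whether more genes recurred than the shared rule alone would give was not tested, and the counts that follow are descriptions. Of the 106 genes higher in corpus lymphatic cells, 44 had enough UMIs in the cauda, 42 of those lay on the lymphatic side there, and 31 met the rule in both (29.2% of the corpus list and 41.9% of the cauda list). Of the 170 genes on the blood side, 67 were measured in the cauda, 62 lay on the same side, and 45 met the rule in both (26.5% and 52.3% of the lists). Caput cells split by the same rule gave 25 of the 31 lymphatic and 12 of the 45 blood genes again. How many genes were compared or met the rule in the caput is not given here, so nothing is read from these counts.

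The genes with the largest ratios towards lymphatic cells were of several kinds. Lyve1, a hyaluronan receptor of lymphatic capillaries (chr7:110850607-110863239, minus strand, GRCm38), gave 764 UMIs in 29 corpus lymphatic cells, or 4023 CPM (3742 to 4318), and 213 UMIs in 6 cauda lymphatic cells, or 3973 CPM (3458 to 4544). The lymphatic levels of both regions overlapped, while the blood cells held 240 CPM in the corpus, with 46 of the 53 UMIs in 1 cell, and 1 UMI in the cauda. The ratios were 16.8 (12.7 to 22.6) and 322 (57.1 to 12761). Fgl2, a fibrinogen-like protein with immune-regulatory roles, was at 2822 CPM in corpus and 3041 CPM in cauda lymphatic cells, against 85.9 and 24.7 CPM in blood cells, ratios of 32.9 (20.8 to 55.0) and 123 (33.5 to 1025). It was detected in 32 of 35 and 6 of 7 lymphatic cells. Among the corpus blood cells, 1 cell held 8 UMIs of Fgl2 beside 9 of Mmrn1, with Pecam1, Cdh5, Emcn and Flt1 at 0. Maf, a transcription factor, stood at 1085 CPM in corpus and 2369 CPM in cauda lymphatic cells and at 85.9 and 37.1 CPM in blood cells. Its ratios were 12.6 (7.88 to 21.4) and 63.9 (21.4 to 314). Pard6g, a cell polarity protein, gave 105 and 49 UMIs in the lymphatic cells and 10 and 0 in blood cells, a ratio of 12.2 (6.39 to 26.2) in the corpus and at least 24.7-fold higher in the cauda.

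Il7 and Nts, which encode secreted signals, were also on the lymphatic side. Il7, the cytokine that lymphocytes need to survive, gave 34 UMIs in 21 of the corpus lymphatic cells and 13 UMIs in 5 of the cauda lymphatic cells, and 0 in both groups of blood cells. In the corpus it was at least 13.2-fold higher, and in the cauda it held too few UMIs to be compared. Nts, the neuropeptide neurotensin, gave 80 UMIs in 17 corpus and 17 UMIs in 3 cauda lymphatic cells, against 8 in 2 corpus blood cells and 0 in the cauda. Both of these blood cells held lymphatic transcripts. In 1 of them 6 UMIs of Nts stood beside 46 of Lyve1 and 3 of Mmrn1. In the other, 2 stood beside 5 of Lyve1 and 1 of Flt4. The ratio of Nts in the corpus was 11.6 (5.63 to 27.9). Nrp2, the coreceptor that pairs with Flt4, stood at 248 against 36.2 CPM in the corpus, a ratio of 6.84 (3.20 to 16.8), and at 336 against 86.5 CPM in the cauda, 3.88 (1.55 to 11). Its paralog Nrp1, a coreceptor of Kdr, went the other way, with 3 UMIs in lymphatic against 69 in blood cells of the corpus and 2 against 19 in the cauda. Cp, the plasma copper protein ceruloplasmin, and Lbp, which binds bacterial lipopolysaccharide, were 7.89-fold (5.76 to 11.1) and 5.82-fold (3.77 to 9.34) higher in corpus lymphatic cells, and 40.0-fold (10.5 to 339) and 14.7-fold (5.31 to 56.7) in the cauda. Other genes named by their ratio were Tmod2, Enpp3, Fxyd6, Lcn2, Gpm6a and Klhl4, with ratios of 8.59 to 30.3 in the corpus, and Enpp3 did not meet the rule in the cauda. The listed genes of leukocyte adhesion and chemokines that were compared lay mostly towards blood cells. Of 10 in the corpus, 1 met the rule towards lymphatic and 3 towards blood cells (median log2 -0.93). Of 5 in the cauda, 0 and 2 did (median -0.77). Over all genes compared, 3.24% and 5.19% met it in the corpus and 5.9% and 6.85% in the cauda. Of 25 listed genes, 23 are in the matrix, and the chemokine Ccl21a is not among them.

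Of 31 listed lymphatic genes in the matrix, 18 had at least 20 UMIs in the corpus, of which 14 were higher in lymphatic and 1 in blood cells, with list sums of 14690 against 1777 CPM and a median log2 ratio of 3.0 against -0.02 over all genes compared. In the cauda, 14 had enough UMIs, with 12 higher in lymphatic and 1 in blood cells, sums of 17964 against 1260 CPM and a median of 4.26 against -0.04. The gene on the blood side in both was Ptn, the growth factor pleiotrophin. Stab2, a scavenger receptor, and Celsr1, a polarity cadherin, were among the genes at 0 in corpus lymphatic cells. Foxc2, a transcription factor of lymphatic valves and collecting vessels, was found in part of the lymphatic cells. In the corpus, 1 cell held 5 UMIs of it and the others 1 each. Its detection depends on depth. Cells with Foxc2 had median depths of 7388 (corpus), 8219 (cauda) and 4332 UMIs (caput), against 3469, 3273.5 and 4846 without it. Whether depth sets these cells apart was not tested. Foxc2 was detected in 5 of 35 corpus, 5 of 7 cauda and 9 of 22 caput lymphatic cells, and in no blood cell of corpus or cauda. Cldn11, a claudin of valves, gave 27 UMIs in 11 corpus lymphatic cells and 47 UMIs in 3 cauda lymphatic cells, 25 and 20 of them in a pair of cells, against 1 and 0 UMIs in blood cells. The ratio was 31.4 (5.18 to 1287) in the corpus and at least 23.7-fold in the cauda. The Foxc2-positive cells, a subset set after the values were seen, held 26.6% of all UMIs of the lymphatic cells in the corpus and 87.8% in the cauda. Against these shares, they held 12 of the 27 Cldn11 UMIs in the corpus and 45 of 47 in the cauda. They held 31 of the 101 UMIs of Igfbp5, which binds insulin-like growth factors, in the corpus, and 144 of 146 in the cauda, where 111 came from 1 cell.

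**Figure D2:**
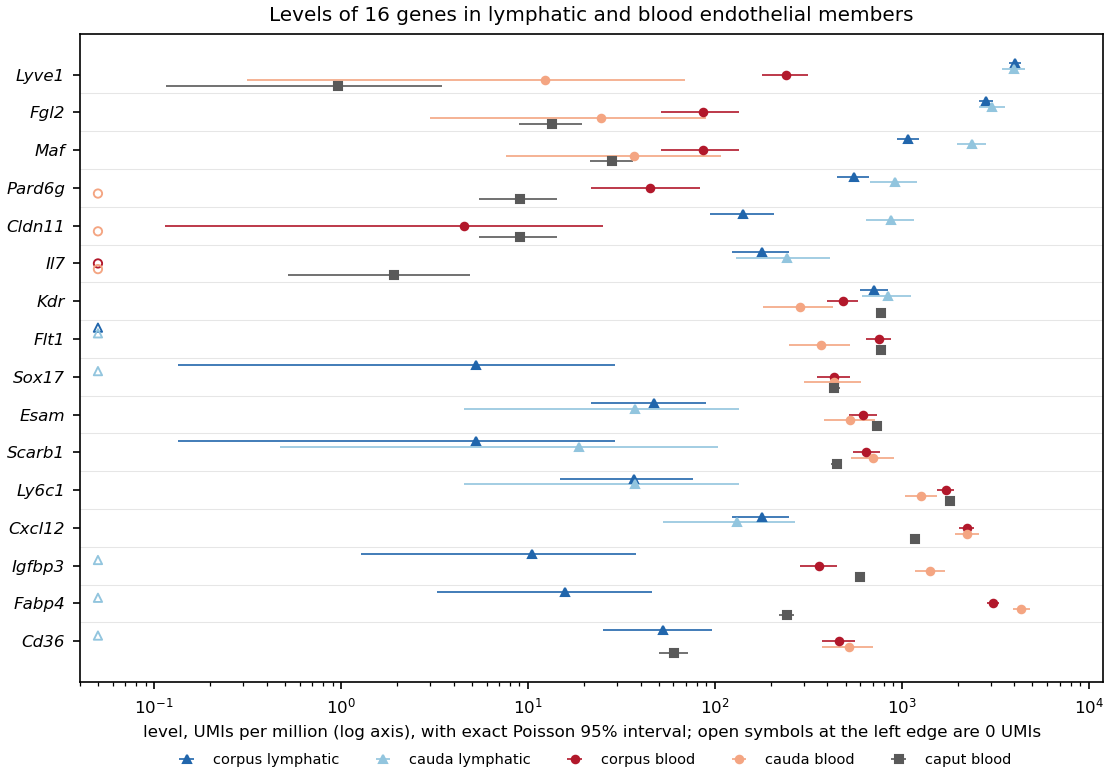
CPM on a log axis with exact Poisson 95% intervals for 16 genes in corpus and cauda lymphatic cells and in corpus, cauda and caput blood cells. Open symbols at the left edge stand for 0 UMIs. Lyve1, at 4023 and 3973 CPM in the lymphatic cells, and Fabp4, at 3084 and 4362 CPM in corpus and cauda blood cells, lie at opposite ends, while Kdr is in all groups.

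Genes of lipid and solute transport were among those on the blood side. Scarb1, the receptor that takes up high-density lipoprotein, gave 143 UMIs in 37 of 56 corpus blood cells and 57 UMIs in 8 of 13 cauda blood cells, against 1 UMI in the lymphatic cells of each region. The ratios were 123 (21.7 to 4884) and 37.8 (6.51 to 1517), and the other cells of each library held 10.5 and 10.3 CPM. Ly6c1, a GPI-anchored surface protein of capillary endothelium, was at 1718 and 1273 CPM in blood cells and 36.9 and 37.3 CPM in lymphatic cells. Its ratios were 46.6 (22.4 to 117) and 34.1 (9.21 to 285). Abcb1a and Abcg2, drug efflux pumps, gave 86 and 127 UMIs in corpus blood cells and 36 and 42 in cauda blood cells, against 1 and 18 in corpus and 0 and 1 in cauda lymphatic cells. Of 13 listed genes of lipid and solute transport compared in the corpus, 7 were higher in blood and 1 in lymphatic cells (median log2 -2.60), and in the cauda 7 and 1 of 11 (median -2.82).

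Single regulators and junction proteins lay on the blood side, while the listed junction genes were split. Sox17, a transcription factor of arterial and other blood endothelium, gave 96 UMIs in 29 corpus and 35 UMIs in 9 cauda blood cells, against 1 and 0 in lymphatic cells. Its level in blood cells was 434 CPM (352 to 530) in the corpus, 432 (301 to 601) in the cauda and 435 (407 to 464) in the caput, so the 3 regions overlapped. Jam2, a junctional adhesion molecule, gave 50 and 14 UMIs in blood cells and 0 in both groups of lymphatic cells. Esam, another of that kind, was 13.1-fold (6.69 to 29.2) higher in blood cells of the corpus and 14.2-fold (3.71 to 121) in the cauda. Cldn5, the main claudin of endothelial tight junctions, was on the other side, at 774 against 244 CPM in the corpus, a ratio of 3.17 (2.31 to 4.41), and at 1119 against 643 CPM in the cauda, which did not meet the rule at 1.74 (1.18 to 2.58). Of 10 listed junction genes compared in the corpus, 6 lay towards lymphatic and 4 towards blood cells, with 1 and 3 past the rule (median log2 0.22), and of 5 in the cauda, 3 and 2, with 0 and 1 past it (median 0.80). Cxcl12, a chemokine that holds leukocytes and progenitors near vessels, was at 2220 and 2236 CPM in blood cells, 12.4-fold (8.76 to 18.1) and 17.1-fold (8.14 to 43.2) above the lymphatic cells. Kitl, the ligand of the receptor Kit, Prnp, the prion protein, Sparcl1, a matrix protein, and Fam101b were also named on this side, with ratios of 15.2 to 55.0 in the corpus. So were Myl9, with 92 UMIs in corpus and 59 in cauda blood cells against 1 and 0 in lymphatic cells, and Igfbp3, at 34.4-fold (9.20 to 289) in the corpus and at least 25.4-fold in the cauda.

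Several endothelial genes did not meet the rule in either direction. Kdr, the main signalling receptor for VEGF-A, gave 135 UMIs in corpus lymphatic and 107 in corpus blood cells, a ratio of 1.47 (1.13 to 1.91), and 45 against 23 in the cauda, 2.95 (1.75 to 5.12). Ramp2, which makes the adrenomedullin receptor, had a ratio of 1.15 (0.859 to 1.55) in the corpus and 2.08 (1.29 to 3.38) in the cauda. Tie1, a receptor tyrosine kinase, had 1.46 (0.823 to 2.60) and 1.76 (0.507 to 6.34). Gpihbp1, which anchors lipoprotein lipase, had 1.33 (1.01 to 1.76) and 0.428 (0.234 to 0.743), with directions that differ between the libraries. Over the 36 pan-endothelial genes listed, 29 were compared in the corpus, with 2 higher in lymphatic and 8 in blood cells and a median log2 ratio of -0.51. In the cauda 20 were compared, with 0 and 6 and a median of -0.44.

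**Figure D3:**
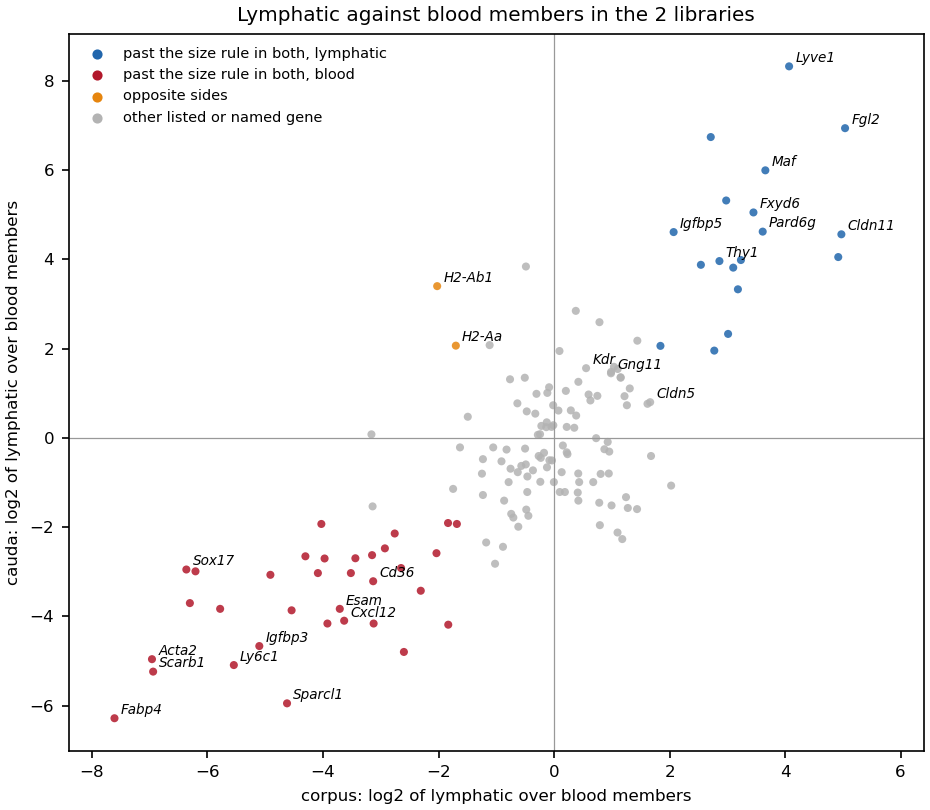
Log2 ratio of lymphatic over blood cells in the corpus (horizontal axis) and in the cauda (vertical axis) for 161 listed or named genes, of which 112 lie on the same side in both libraries. Lyve1 and Fgl2 lie at the upper right and Scarb1 and Sparcl1 at the lower left, and H2-Aa and H2-Ab1 are at the upper left.

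Within the blood cells, a few cells carried much of the signal of several genes. Fabp4, a fatty acid binding protein of capillary endothelium, reached 3084 CPM (2857 to 3324) in corpus and 4362 CPM (3918 to 4841) in cauda blood cells. It was detected in only 9 of 56 corpus and 4 of 13 cauda cells, and 298 of the 353 cauda UMIs were in 1 cell. Lymphatic cells held 3 UMIs in the corpus and 0 in the cauda, so blood cells were 195-fold (66.5 to 949) and at least 77.9-fold higher. Cd36, a fatty acid transporter, gave 102 UMIs in 10 corpus cells and 42 in 2 cauda cells. Cells with both Fabp4 and Cd36 numbered 7 in the corpus, 2 in the cauda and 8 of 300 in the caput. These cells, picked after their values were seen, held 669 of the 682 corpus UMIs of Fabp4 and 350 of the 353 cauda UMIs. They also held 30 of 31 corpus and 26 of 28 cauda UMIs of Fabp5, a second binding protein of the family that was not used to pick them.

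Arterial and venous genes marked other cells. At least 3 of the arterial genes Gja4, Sema3g, Hey1, Stmn2 and Edn1 were detected in 4 corpus, 2 cauda and 78 caput blood cells, and Ackr1 or Selp, of venules, in 5, 3 and 22. Each of the 3 cauda cells held 1 UMI of Selp and 0 of Ackr1. None of these 3 patterns was seen in 42 corpus, 6 cauda and 198 caput blood cells, and 2 corpus and 6 caput cells had more than 1. The patterns need detected genes and so depend on depth. Cells without a pattern had median depths of 2408.5 (corpus), 2728.5 (cauda) and 4393 UMIs (caput). With a pattern, the medians were 4317 to 10523, 5899 to 12213 and 6759 to 11991.5. All caput blood cells had a median of 5274 UMIs, against 2758.5 in the corpus and 4719 in the cauda. The 42 corpus cells without a pattern held 0 UMIs of Fabp4 and 95 of the 143 UMIs of Scarb1, with 59.3% of all UMIs of the corpus blood cells. One of the 5 corpus cells with Ackr1 or Selp held 1 UMI of Selp beside 46 of Lyve1, 6 of Nts and 3 of Mmrn1, with Flt1 and Emcn at 0, so its transcripts include lymphatic ones. Another of the 5 held 1 UMI of Selp and 0 of Ackr1. In the corpus, Ackr1, the atypical chemokine receptor of venules, gave 33 UMIs in 3 cells, and in the cauda 0. Edn1, the vasoconstrictor endothelin, gave 40 UMIs in 11 corpus cells and 37 in 4 cauda cells, 29 of them in 1 cell. Acta2, the actin of smooth muscle, gave 145 UMIs in 11 corpus blood cells and 94 in 2 cauda blood cells, 83 of them in 1 cell, and 1 and 2 UMIs in lymphatic cells. The arterial-pattern cells held 121 of the 145 UMIs in the corpus and 83 of the 94 in the cauda, with 12% and 29.6% of all UMIs of the blood cells. They also held 27 and 14 UMIs of Myh11 and 63 and 40 of Myl9, both of smooth muscle. Other genes of mural cells, the smooth muscle and pericytes around vessels, moved with it: the 12 listed summed to 1171 CPM in corpus blood (0 to 87.4 per 10000 in single cells, with a median of 0) and 2372 CPM in cauda blood cells (0 to 77.4, median 0). In lymphatic cells they summed to 68.5 and 74.6 CPM. Of the 12, 10 had UMIs in corpus blood cells, with Cnn1 and Higd1b at 0, and 9 in cauda blood cells, with Cnn1, Pdgfrb and Abcc9 at 0. The part of mural RNA or of mixed droplets in these values was not tested.

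**Figure D4:**
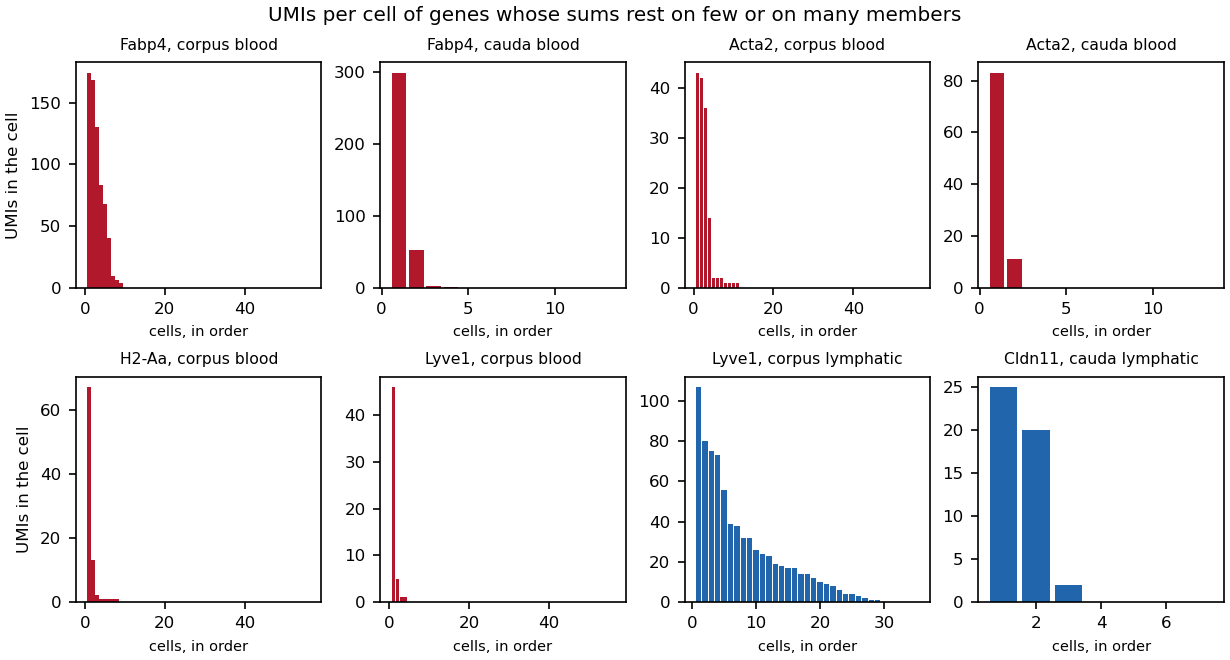
UMIs per cell in descending order for Fabp4 and Acta2 in blood cells of corpus and cauda, for H2-Aa and Lyve1 in corpus blood cells, and for Lyve1 and Cldn11 in lymphatic cells. Fabp4 and Acta2 come from a few cells, and 67 of the 87 H2-Aa UMIs and 46 of the 53 Lyve1 UMIs of corpus blood cells come from 1 cell each, while Lyve1 in corpus lymphatic cells is spread over 29.

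Genes of antigen presentation gave the only calls with opposite directions in the 2 libraries. The class II chains H2-Aa and H2-Ab1, which present peptides to helper T cells, were lower in lymphatic than in blood cells of the corpus, with ratios of 0.308 (0.186 to 0.492) and 0.246 (0.131 to 0.434). In the cauda they were higher, with 4.19 (1.89 to 10.2) and 10.6 (4.12 to 34.6). Each value rested on very few cells. In the corpus blood cells 67 of 87 H2-Aa UMIs and 52 of 71 H2-Ab1 UMIs were in 1 cell, and in the cauda lymphatic cells 19 of 25 and 32 of 35. The other cells of the libraries held 376 and 813 CPM of H2-Aa, close to or above the endothelial groups (393 and 121 CPM in corpus blood and lymphatic, 111 and 466 CPM in cauda). Macrophage and other myeloid markers, 16 listed, summed to 778 CPM in corpus blood (0 to 90.2 per 10000 in single cells), 269 in corpus lymphatic (0 to 37.3), 346 in cauda blood (0 to 32.9) and 429 in cauda lymphatic cells (0 to 8.52). Of the 16, 14, 11, 8 and 7 had UMIs in these 4 groups. Adgre1 was at 0 in all but the corpus lymphatic cells and S100a9 in all 4, and the part of such RNA in the class II values was not tested. Of 17 listed genes of antigen presentation and interferon response compared in the corpus, 16 lay towards blood cells and 6 met the rule (median log2 -1.62). Of 13 compared in the cauda, 3 met the rule towards lymphatic and 2 towards blood cells (median -0.33).

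Of 16 listed cell division genes, 8 held at least 20 UMIs over the endothelial cells of corpus and cauda. The 16 summed to 1397 CPM in corpus blood and 679 CPM in corpus lymphatic cells, against 968 CPM in the other corpus cells. In the cauda they summed to 1433 CPM in blood and 1996 CPM in lymphatic cells, against 682 CPM in the other cells. Mki67, a marker of cycling cells, gave 23 UMIs in 9 of the corpus blood cells and 0 in the corpus lymphatic cells, which allows up to 15.8 CPM, against 104 CPM (65.9 to 156) in the blood cells. In the cauda it gave 2 and 1 UMIs. Top2a, a topoisomerase of dividing cells, gave 22 UMIs in 1 cauda lymphatic cell, which also held 16 UMIs of Prox1 and 37 of Cd74. It was also found in blood cells, with 6 UMIs in 1 cauda cell and up to 8 in a single corpus cell.

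Blood cells of the corpus and the cauda were then set against each other, a comparison that the rule did not use but that rests on 56 and 13 cells of 1 library each. Of 2569 genes compared, 45 (1.75%) were higher in the corpus and 37 (1.44%) in the cauda, and 67 and 26 under TMM scaling, which shifted the log2 ratios by 0.22 towards the corpus. The pan-endothelial list gave none of these calls: 29 genes were compared, 15 lay towards the corpus and 14 towards the cauda (21 and 8 under TMM scaling), and the median log2 ratio was 0.01 against -0.04 over all genes. Scarb1, Cxcl12 and Sox17 had CPM in both regions whose intervals overlapped. Flt1, a gene of the rule, was at 751 CPM in the corpus and 371 in the cauda. Only 12 of the 45 and 22 of the 37 had a level at least as high in the endothelial cells as in the other cells of their own library, and names were taken from these.

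Lrg1, a secreted glycoprotein that acts on vessel growth, was at 746 CPM (637 to 869) in corpus and 161 CPM (85.5 to 275) in cauda blood cells, a ratio of 4.65 (2.64 to 8.91). It was detected in 20 of 56 and 5 of 13 cells, and lymphatic cells of both regions held more, at 969 and 1157 CPM. Of its 165 UMIs in corpus blood cells, 105 were in 3 of the 5 cells with Ackr1 or Selp, 52 of them in 1 cell, and the 42 cells without a pattern stood at 442 CPM, with 58 UMIs in 15 cells. Cmtm8 (31 UMIs in 16 cells against 1 UMI) and Tpp1, a lysosomal peptidase (26 UMIs in 18 cells against 1 UMI), were spread over cells, with ratios of 11.3 (1.89 to 462) and 9.52 (1.56 to 390). For several other names 1 corpus cell held most of the UMIs. Lyve1 had 46 of 53 UMIs, the antibody chain Igkc 33 of 34, the chemokine Ccl4 42 of 45, the chemokine Ccl3 20 of 32 and Ackr1 20 of 33 in 1 cell, and H2-Aa and H2-Ab1 were described above. Towards the cauda, Nr4a1, an immediate early nuclear receptor, was at 131 CPM (87.8 to 188) in corpus and 680 CPM (512 to 885) in cauda blood cells, a ratio of 5.18 (3.25 to 8.43), and was found in 11 of 13 cauda cells. Nid1 and Col15a1, proteins of the basement membrane and its surroundings, were 6.49-fold (2.71 to 17.1) and 4.97-fold (2.27 to 11.5) higher. Igfbp3, which carries insulin-like growth factors, was 3.93-fold (2.93 to 5.29) higher, with 79 of its 115 cauda UMIs in 1 cell. Actn1, Myadm, Impad1, Bcr, Snrnp200 and Mcl1 were the other names, at 3.90-fold to 4.92-fold.

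Listed immediate early and matrix genes lay mostly towards the cauda, and few of them met the rule. Over all 2569 genes compared, 1.44% were higher in the cauda and the median log2 ratio was -0.04. The share of all genes lying towards the cauda is not given here. Of 24 immediate early and heat shock genes, which respond quickly to stress and handling, 22 lay towards the cauda (19 under TMM scaling) and 2 met the rule (median log2 -0.66). They summed to 26818 CPM in corpus and 41959 CPM in cauda blood cells, and to 12458 and 25186 CPM in the other cells of the 2 libraries. Of 20 basement membrane and matrix genes, 19 lay towards the cauda (16 under TMM scaling) and 3 met the rule (median -0.65), with sums of 16409 and 22549 CPM, against 4639 and 18232 CPM in the other cells. Markers of other cells differed in the same comparison. All 5 fibroblast markers compared were higher in cauda blood cells (Dcn at 253 and 2434 CPM, ratio 9.61, 7.11 to 13.2), and the 13 listed summed to 1121 CPM in corpus blood (0 to 54.4 per 10000 in single cells) and 9946 CPM in cauda blood cells (6.36 to 624), against 7726 and 42770 CPM in the other cells of the 2 libraries. All 11 principal cell markers compared lay towards the corpus, 7 of them past the rule, and the 15 listed summed to 9993 CPM (18.0 to 657 per 10000 in single cells) and 3385 CPM (6.76 to 156), against 47672 and 23763 CPM in the other cells. The part of this RNA in the matrix, immediate early and remaining calls was not tested.

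**Figure D5:**
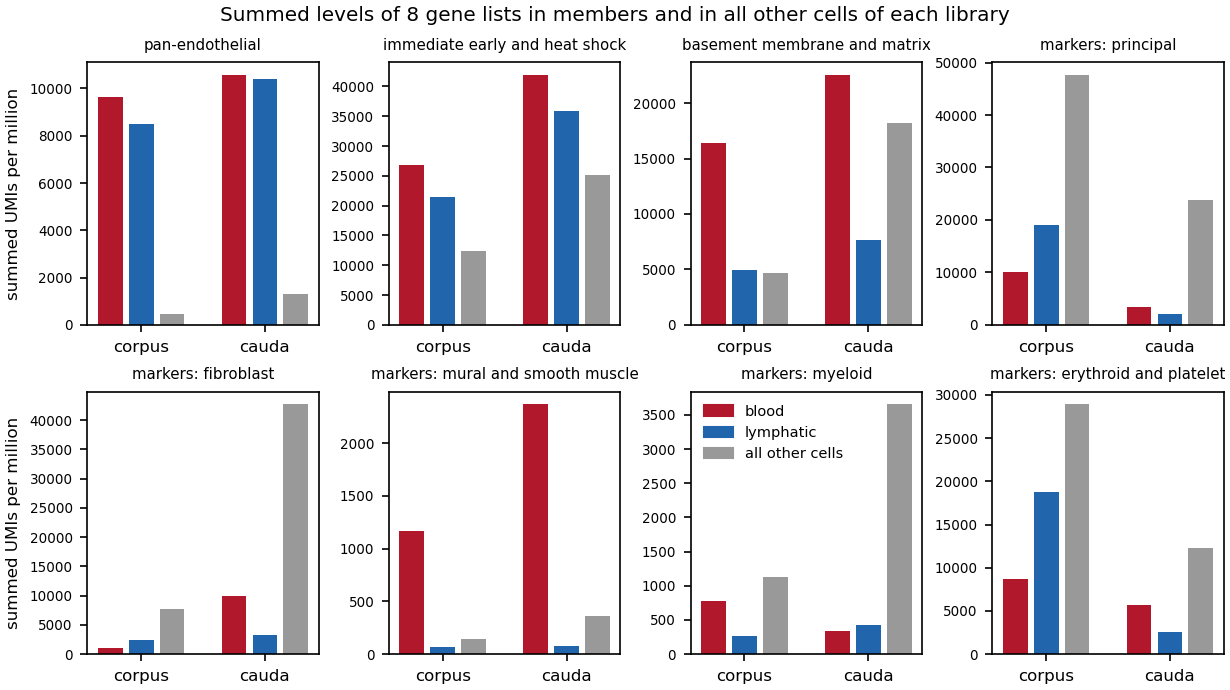
Summed CPM of 8 gene lists in blood cells, lymphatic cells and all other cells of the corpus and of the cauda. The pan-endothelial list stands at 9636 and 10576 CPM in corpus and cauda blood cells and at 8514 and 10409 CPM in lymphatic cells, against 459 and 1299 CPM in the other cells. Fibroblast markers stand at 9946 CPM in cauda and 1121 CPM in corpus blood cells.

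Lymphatic cells of the 2 regions were too few in the cauda for the same comparison, and their values are given side by side. TMM scaling shifts each log2 ratio of corpus over cauda given here by 0.51. Lyve1, Fgl2, Flt4, Il7 and Lrg1 had CPM whose intervals overlapped between corpus and cauda. Maf stood at 1085 CPM (942 to 1243) and 2369 CPM (1975 to 2819), and Igfbp5 at 532 (433 to 646) and 2724 (2300 to 3203), without overlap, the latter with 111 of its 146 UMIs in 1 cell. Mmrn1 was at 2164 CPM (1960 to 2384) in the corpus and 1679 (1350 to 2064) in the cauda, and Prox1 at 674 (562 to 801) and 1698 (1367 to 2084). Mmrn1, Prox1 and Flt4 are genes of the rule, and their levels only describe the cells it chose. Principal cell RNA was higher in the corpus, with list sums of 18960 and 2033 CPM (16.3 to 746 and 11.3 to 101 per 10000 in single cells). So was haemoglobin and platelet RNA, at 18733 and 2537 CPM for 10 genes (14.6 to 5056 and 6.08 to 152 per 10000). Its medians per cell, 47.3 and 20.7 per 10000, lay closer together than the sums.

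The caput blood cells, 300 in number and found by the same rule, served to show where the corpus and cauda cells differ. Set against the corpus, caput blood cells were higher for 149 of 8812 genes (1.69%) and lower for 121 (1.37%). Set against the cauda, they were higher for 101 of 8613 genes (1.17%) and lower for 191 (2.22%). TMM scaling shifted the second set of log2 ratios by 0.33 towards the caput, and the counts became 165 and 102, so which side held more genes depended on the scaling. Both comparisons share the caput library. Of the genes higher in the caput, 28 of the 149 and 11 of the 101 had a level at least as high as in the other caput cells, and of those higher in corpus or cauda 70 of the 121 and 146 of the 191 had one at least as high as in the other cells of their library.

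Esm1, a secreted proteoglycan of endothelial tip cells, gave 328 UMIs in 91 caput blood cells, 2 UMIs in corpus and 0 in cauda blood cells. Its caput level of 157 CPM (141 to 175) was 17.4-fold (4.78 to 144) that of the corpus and at least 4.24-fold that of the cauda. Dkk2, a Wnt pathway antagonist, gave 155 UMIs in 76 caput cells, 1 in the corpus (ratio 16.4, 2.91 to 653) and 2 in the cauda (3.01, 0.819 to 25.1, not past the rule). Erg, an ETS factor of endothelium, was 5.94-fold (2.00 to 29.1) higher in caput than in corpus blood cells and 0.932-fold (0.442 to 2.35) of the cauda level. Rgs5, a marker of pericytes as well as of some endothelium, was at 902 CPM in caput, 158 in corpus and 470 in cauda blood cells, and was past the rule against the corpus alone. Of 21 arterial genes compared, 19 lay towards the caput over the corpus with 1 past the rule (median log2 0.86 against 0.07 over all genes), and over the cauda the median was 0.14 against -0.23 (0.47 and 0.10 under TMM scaling). Fabp4 went the other way, at 242 CPM (222 to 264) in the caput, 12.7-fold (11.3 to 14.3) lower than in the corpus and 18.0-fold (15.7 to 20.7) lower than in the cauda. Cd36, at 60.4 CPM (50.3 to 71.9), was 7.63-fold (5.82 to 9.99) and 8.59-fold (5.91 to 12.3) lower. Both rest on the few cells described above. Transcripts of immune cells also stood among the names higher in the corpus: the gene spelled Retnia in the matrix gave 125 UMIs in 14 corpus blood cells, 88 of them in 1 cell, and 3 in the caput, while the other corpus cells held 439 CPM against 565 CPM in the blood cells. Ccr2, a chemokine receptor of monocytes, gave 18 UMIs in 3 corpus blood cells, and Igkc and Ckap2 had 33 of 34 and 15 of 16 UMIs in 1 corpus cell. Lyve1, whose corpus UMIs were mostly in 1 cell, was named there too. The remaining names were Olfm1, H2-Ab1 and H2-Aa, at 8.96-fold (4.52 to 17.7), 12.2-fold (8.44 to 17.6) and 8.82-fold (6.51 to 11.9).

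Other genes named for the caput over the corpus were Inpp4b, Ssu2, Wfdc1, Sema7a, Ndufa4l2 and Mfap4, with ratios of 5.30 to 11. Over the cauda they were Cmtm8 at 15.8-fold (2.82 to 625), Hbb-bt, a haemoglobin chain, at 12.2-fold (5.60 to 33.3), and Taok1, Pdcd6ip, Selm, Dusp3, Fbln5, Rgcc and Psma2 at 3.19-fold to 10.8-fold. Genes named for the cauda over the caput were Fabp5, which binds fatty acids, at 14.4-fold (8.75 to 23.4), Tagln of smooth muscle at 12.9-fold (7.55 to 21.5), and Wnk2, Rfwd2, Snrnp200, C1qtnf7, Ccna2 and Dusp26 at 8.59-fold to 12.9-fold. Tagln rested on 24 UMIs in 3 cauda blood cells, and Wnk2 on 7 and Ccna2 on 5 UMIs in 1 cell.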

How the data were processed

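Single-cell RNA libraries, 1 each from caput, corpus and cauda epididymis, were read out as 1 matrix of UMI counts for 24335 genes in 14845 cells. Per the submitters' processing notes the authors used STAR 2.7.3a, the mouse genome GRCm38.p6 and UMI-tools, and they deposited the counts without normalization. The step that separated cells from empty wells was not given in the sources used here. Column names give the region of each cell. Cells with at least 200 detected genes were kept, and no doublet caller was run. The members and the gene lists were chosen with earlier results of these data known. UMIs were summed over the cells of a group and given as CPM, where all genes count towards the total, with exact Poisson 95% intervals. Ratios had exact conditional binomial and shares Clopper-Pearson intervals. Where a group held 0 UMIs, the ratio was taken at 3 and written as "at least".

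The text names, in each direction of a comparison, the 10 genes with the largest ratio among those past the rule whose CPM is not below that of the other cells of the library (12 for lymphatic against blood, which had to lie on the same side in the cauda). Further names were drawn from the list genes with at least 20 UMIs, of which not all are printed. Clone-named transcripts were not named. Ccl21a and other listed genes without a row in the matrix (13 of 446) were not analysed here. Of 35 genes of the rule or named for lymphatic against blood, 23 had a promoter in the RefSeq table, and gene positions are those of GENCODE M21. Python 3.11.15, NumPy 2.4.6, pandas 2.3.3, SciPy 1.17.1 and matplotlib 3.10.9 were used, with R 4.3.3 and edgeR 4.0.16 for the TMM factors. The alternatives were other thresholds of the rule, TMM scaling, a higher UMI minimum and the removal of doubtful cells or of each gene's top cell.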

Additional observations from a re-analysis of the deposited data

Results flagged for a closer look

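The difference between lymphatic and blood cells had opposite directions in the corpus and cauda libraries for the class II chains, the peptide-presenting proteins of antigen-presenting cells. For H2-Aa the log2 ratio of lymphatic over blood cells was -1.70 in the corpus and 2.07 in the cauda. For H2-Ab1 it was -2.02 and 3.40. With 1 library per region the difference between them was not tested, and each value rests mostly on 1 cell.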

How the results depend on the processing

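The endothelial share of the corpus library was 2.34% without cells over 20% mitochondrial UMIs and 1.17% with all cells thinned to 1000 UMIs. With a minimum of 50 UMIs, the genes higher in lymphatic and in blood cells numbered 55 and 83 in the corpus and 22 and 39 in the cauda, corpus against cauda blood cells gave 25 and 14, and the genes above the caput numbered 62 in the corpus and 120 in the cauda. The next 3 alternatives were chosen after seeing the data. Without the cell with the most UMIs of each gene, the counts were 61 and 100, 15 and 26, and 26 and 9, and those above the caput 42 and 26. Without cells over 10 UMIs of Acta2, Rgs5, Cd74 and C1qb, lymphatic against blood cells gave 41 and 49 in the cauda, and blood cells 25 above the cauda in the corpus, 78 above the caput in the corpus and 65 above the cauda in the caput. Leaving out blood cells with a lymphatic gene moved none of the 10 counts by over 1.5 times. Without cells over 5 UMIs of other lineages, which left 10 blood and 3 lymphatic corpus cells and 1 blood cell and no lymphatic cell of the cauda, the counts were 8 and 14 for corpus lymphatic against blood, 0 and 3 for corpus against cauda, 27 and 40 for caput against corpus and 2 and 30 for caput against cauda, and no value could be given for the lymphatic cells of the cauda. TMM scaling, a trimmed mean that rescales the group totals, had factors of 0.847 to 1.32 and gave 165 genes higher in caput and 102 in cauda blood cells, reversing which side had more. Under the higher marker sum and marker number, lymphatic calls at 3 of 4 genes and sums without mitochondrial genes, every count stayed within 1.5 times.

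Named genes that changed direction were those of few cells. For corpus against cauda blood cells the log2 ratio of H2-Ab1 was -2.98 and that of H2-Aa -1.76 without the cells high in Acta2, Rgs5, Cd74 and C1qb, and H2-Aa was at -0.30 without its top cell. For caput against corpus, Igkc was at 0.21 with 4 markers required and 0.35 without its top cell, H2-Ab1 at 0.0074 without the mixed cells, and Ckap2 at 0.76 without its top cell and 0.27 without blood cells holding a lymphatic gene. No paired analysis was possible because each region has 1 library. The depth limits the cauda most, where 13 blood and 7 lymphatic cells leave a floor of 37.1 and 56.0 CPM for a gene at 0.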
